A study of Bos taurus with 8 samples.

Results

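The genes described here make miR-192, miR-194 and miR-215, and were taken from the count table by name among the genes of biotype miRNA. The names found were bta-mir-192 (ENSBTAG00000029940), bta-mir-194-2 (ENSBTAG00000030123), bta-mir-215 (ENSBTAG00000030056) and bta-mir-194-1 (ENSBTAG00000030053), which are 4 of 1153 miRNA genes. Small RNA was sequenced from the liver of 8 Holstein Friesian cows, 1 library per cow, at approximately 14 days after calving. The 4 cows in mild negative energy balance (MNEB, libraries 2M, 3M, 4M and 5M) ate grass silage without limit (ad libitum) plus concentrate at 8 kg/day, and their milking was 1 time per day. The 4 cows in severe negative energy balance (SNEB, libraries 7S, 8S, 9S and 10S) were held to 25 kg/day of silage and 4 kg/day of concentrate, and their milking was 3 times per day. The deposited labels of 2M disagree on its group, as described below, and its feeding and milking follow from taking it as MNEB. Negative energy balance is the state in which milk production and maintenance take more energy than the feed supplies. The question was whether these miRNAs took a different part of the hepatic miRNA pool in SNEB than in MNEB. Each sample was a piece of whole liver, so a change in the number of cells of a type and a change in RNA per cell cannot be told apart.

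miRNAs are short RNAs that guide silencing proteins to matching mRNAs and lower the output of those mRNAs. miR-192 and miR-215 are near relatives with the same seed, the stretch that pairs with targets, while miR-194 has another seed. The family is made from a pair of loci, each holding miR-192 or miR-215 and 1 copy of miR-194. RefSeq places the bovine genes in the same way (ARS-UCD2.0, another assembly than that of the counts, consulted for neighbours alone): MIR192 and MIR194-2 lie within 10000 bp of each other and overlap EHD1, and MIR215 and MIR194-1 lie within 10000 bp of each other and overlap IARS2. In human and mouse the family is abundant in liver, intestine and kidney epithelium, and the hepatocyte transcription factor HNF4A is known to drive it. miR-192 and miR-215 are known in human cells to slow the cell cycle, and miR-194 is known to act on the adhesion protein N-cadherin.

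The files held counts per gene of reads with a unique alignment. They are given here as reads per 1000000 gene reads (RPM) or as percentages of the miRNA reads. Gene reads per library ranged from 21617227 to 33963761, and miRNA genes held 98.7% to 99.5% of them. Library 5M stood apart, with 91.9% of its miRNA reads from miR-122, the defining hepatocyte miRNA, against 60.9% to 76.5% in the other 7 libraries. Its TMM scaling factor was 0.270 against 1.09 to 1.45 in the others. Library 2M has an M title, which stands for MNEB in the study's methods, and an SNEB treatment label. It was analysed as MNEB. Over the 116 miRNA genes above 10 RPM outside the family and miR-122, library 2M deviated from the mean of the libraries most like 10S (Pearson r = 0.63 across genes) and 7S (r = 0.56), both SNEB. Results that rest on 2M or 5M are therefore also given without them.

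miR-192 far exceeded the other members in every library. It stood at 77097 RPM in 2M, 130614 in 3M, 139671 in 4M and 28178 in 5M among the MNEB cows. The SNEB libraries 7S, 8S, 9S and 10S had 65926, 62903, 82848 and 64411 RPM. The MNEB libraries thus lay both above and below the SNEB range. The means were 93890 ± 51784 RPM in MNEB and 69022 ± 9299.5 RPM in SNEB (SD, n = 4 each), and the coefficient of variation was 55.2% in MNEB against 13.5% in SNEB. Library 5M alone set the lower end in MNEB.

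miR-194-2, its neighbour at the same locus, was far lower. It stood at 185 RPM in 2M, 366 in 3M, 222 in 4M and 77.3 in 5M. The SNEB libraries 7S, 8S, 9S and 10S had 179, 233, 109 and 236 RPM. The groups overlapped, with the highest and the lowest value both in MNEB, and the means were 213 ± 119 RPM in MNEB and 189 ± 59.5 RPM in SNEB (SD, n = 4 each). The copies of miR-194 are known to give the same mature miRNA, and a read that fits more than 1 place was left out of the counts. The level of each miR-194 gene is therefore uncertain and does not give the level of mature miR-194. The RefSeq genes MIR194B-2 and MIR194B also overlap the miR-194 genes, and 0 genes in the count table carry a miR-194b name.

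miR-215, the seed relative of miR-192 at the other locus, stood at 64.6 RPM in 2M, 84.1 in 3M, 125 in 4M and 5.65 in 5M. The SNEB libraries 7S, 8S, 9S and 10S had 38.4, 24.1, 85.4 and 47.0 RPM. The other 3 MNEB libraries and 9S were the 4 highest, and 5M was the lowest of all. The means were 69.9 ± 49.7 RPM in MNEB and 48.7 ± 26.2 RPM in SNEB (SD, n = 4 each).

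miR-194-1, its neighbour, was the lowest member in every library. It stood at 11.9 RPM in 2M, 5.40 in 3M, 4.51 in 4M and 0.648 in 5M, and the SNEB libraries 7S, 8S, 9S and 10S had 11.7, 2.52, 1.74 and 14.0 RPM. Libraries 2M, 7S and 10S were high and the other 5 were low. The high libraries came from both groups only with 2M taken as MNEB, on which its labels disagree. With 2M as SNEB, all of the high libraries would be SNEB. The highest and the lowest differed 21.6-fold, and the lowest value rests on 22 reads. The mean of 6.55 RPM was below the 10 RPM threshold of the study, which the other 3 members passed.

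**Figure D1:**
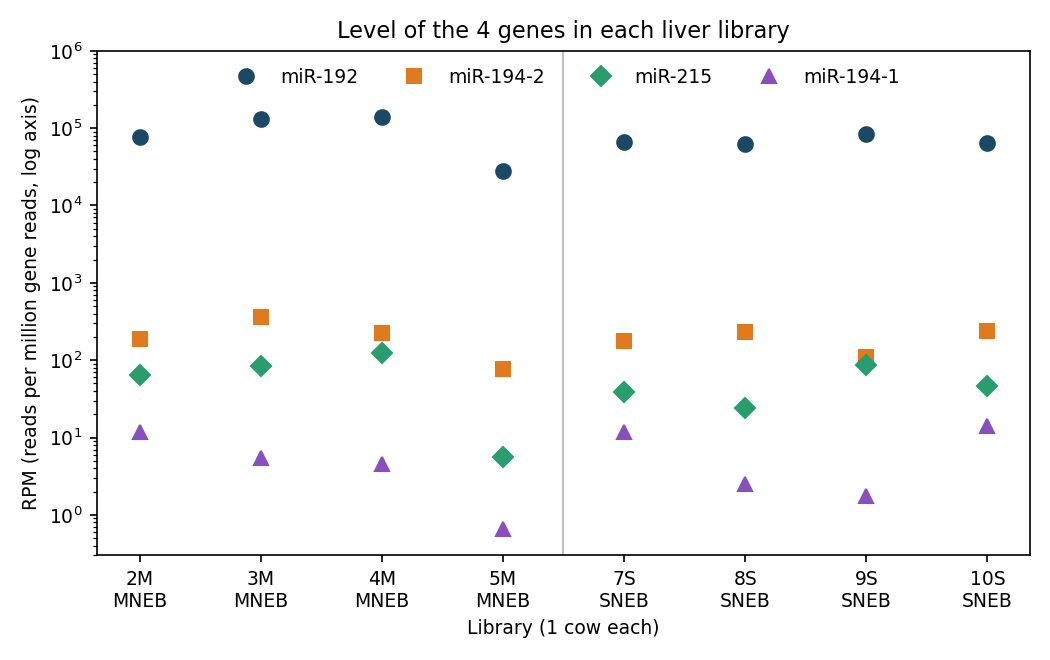
Level of each of the 4 genes (RPM, log axis) in the 8 liver libraries, 1 point per library. The order miR-192, miR-194-2, miR-215, miR-194-1 holds in all 8 libraries, and library 5M has the lowest value of every member.

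The order of the 4 members was the same in each library, and the neighbours nearest to each other as a ratio were miR-194-2 and miR-215 in 9S, at 109 and 85.4 RPM. The levels of miR-194-2 and miR-215 overlapped between libraries, since miR-215 in 4M, at 125 RPM, exceeded miR-194-2 in 5M and 9S. Of the reads of the 4 genes together, miR-192 held 99.5% to 99.8% in every library. The 4 genes' share of the counted miRNA reads, 8.25% on average, was therefore the share of miR-192 almost alone. Reads of mature miR-194 that fit both copies are missing from these counts, so the part of miR-194 in the family is not given. Among all miRNA genes miR-192 ranked 2 in each MNEB library and 3 in each SNEB library. The gene that changed places with it was miR-3596, which the study counts in the let-7 family. RefSeq has MIRLET7B overlapping MIR3596, and 0 genes in the count table are named let-7b, so reads of the overlapping pair may stand under miR-3596. miR-194-2 ranked from 28 to 49, miR-215 from 54 to 90, and miR-194-1 never above 107.

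The 2 genes of a locus were far from equal in counted reads, and their ratio varied. As reads that fit both copies of miR-194 were left out, these ratios do not compare the mature miRNAs. For each read of miR-194-2 there were 416 reads of miR-192 in 2M, 357 in 3M, 629 in 4M, and in 5M a number between those of 3M and 2M. The SNEB libraries 7S, 8S, 9S and 10S had 367, 269.8, 759 and 273. The SNEB libraries held both ends of this range. The mean log2 ratio was 8.75 ± 0.38 in MNEB and 8.56 ± 0.70 in SNEB (SD, n = 4 each), a difference of -0.18 (two-sided exact permutation test over 70 assignments, p = 0.629, adjusted p = 0.971 over 3 ratios). Without 4M the difference was 0.0012, and without 9S it was -0.52. At the other locus the ratio of miR-215 to miR-194-1 ran from 3.28 to 49.0, a wider span than at the miR-192 locus, with 9S again the highest. The ratio of miR-194-2 to miR-194-1, the 2 copies of miR-194, ran from 15.3 to 119.

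Over the 8 libraries no pair of members had a correlation that passed the test. On log2 of the percentage of miRNA reads left after miR-122, the pair of miR-192 and miR-194-2 had a Pearson r of 0.46 (exact permutation p = 0.221, adjusted p = 0.758) and a Spearman rho of 0.48 (exact permutation p = 0.243, adjusted p = 0.873), over 6 pairs of members. Without 3M and 4M, the libraries farthest from the median of miR-192, r was 0.38. With 1 library left out it ran from 0.13 without 3M to 0.59 without 4M. On RPM, where both genes share the part taken by miR-122, r was 0.72 (exact permutation p = 0.0577). miR-215 and miR-194-1 had r = 0.19 (exact permutation p = 0.632, adjusted p = 0.758) and rho = 0.24 (exact permutation p = 0.582, adjusted p = 0.873), and r turned to -0.61 without 5M and 8S. The seed relatives miR-192 and miR-215 had r = 0.26 (exact permutation p = 0.546, adjusted p = 0.758) and rho = 0.38 (exact permutation p = 0.360, adjusted p = 0.873), and r was -0.42 without 3M and 4M. The copies miR-194-2 and miR-194-1 had r = 0.39 (exact permutation p = 0.354, adjusted p = 0.758) and rho = 0.14 (exact permutation p = 0.752, adjusted p = 0.902), and r was -0.06 without 3M and 9S. The sign of these 3 relations thus rests on the libraries left out, and a group of 4 libraries is too small for a relation within it. The remaining pairs had an r of -0.35 (miR-194-2 and miR-215) and -0.11 (miR-192 and miR-194-1), and a rho of -0.29 and 0, with an adjusted permutation p of at least 0.758.

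miR-192 and miR-194-2 each had closer matches than the other. By Pearson r over the 8 libraries on the same scale, given as a description among 118 other genes above 10 RPM, miR-192 was most like miR-99a (r = 0.62), miR-154c (0.56), miR-148a (0.47), miR-194-2 (0.46) and miR-2284w (0.43). miR-148a is a hepatocyte-enriched miRNA known to act on lipid metabolism. miR-194-2 was most like miR-744 (r = 0.66), let-7g (0.64), miR-128-1 (0.61), miR-107 (0.60) and miR-106b (0.58), and miR-192 came at place 13. miR-215 was most like miR-455 (r = 0.94), a pair named after its values were seen, and miR-455 was at 2.91 RPM in 5M against 20.3 to 109 in the others. All points share the miRNA reads without miR-122 as their denominator.

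After miR-122, miR-192 was the most abundant miRNA in every MNEB library and came after miR-3596 in every SNEB library. It took 32.5% of them in 2M, 46.6% in 3M, 36.2% in 4M and 35.1% in 5M. The SNEB libraries 7S, 8S, 9S and 10S gave 26.9%, 27.1%, 25.9% and 26.2%. All 4 SNEB libraries lay below all 4 MNEB libraries, and the SNEB libraries were nearly equal. The means were 37.6% ± 6.23 in MNEB and 26.5% ± 0.584 in SNEB (SD, n = 4 each), a difference of -11.1 percentage points, with SNEB at 0.706 of MNEB. The two-sided exact permutation test gave p = 0.0286, the smallest that 4 against 4 allows, and adjusted p = 0.680 over the 119 miRNA genes above 10 RPM without miR-122. It did not pass the adjustment. The counting error of these shares was at most 0.0566 percentage points to either side (95% Wilson interval, which covers counting error only, as PCR copies count as reads).

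**Figure D2:**
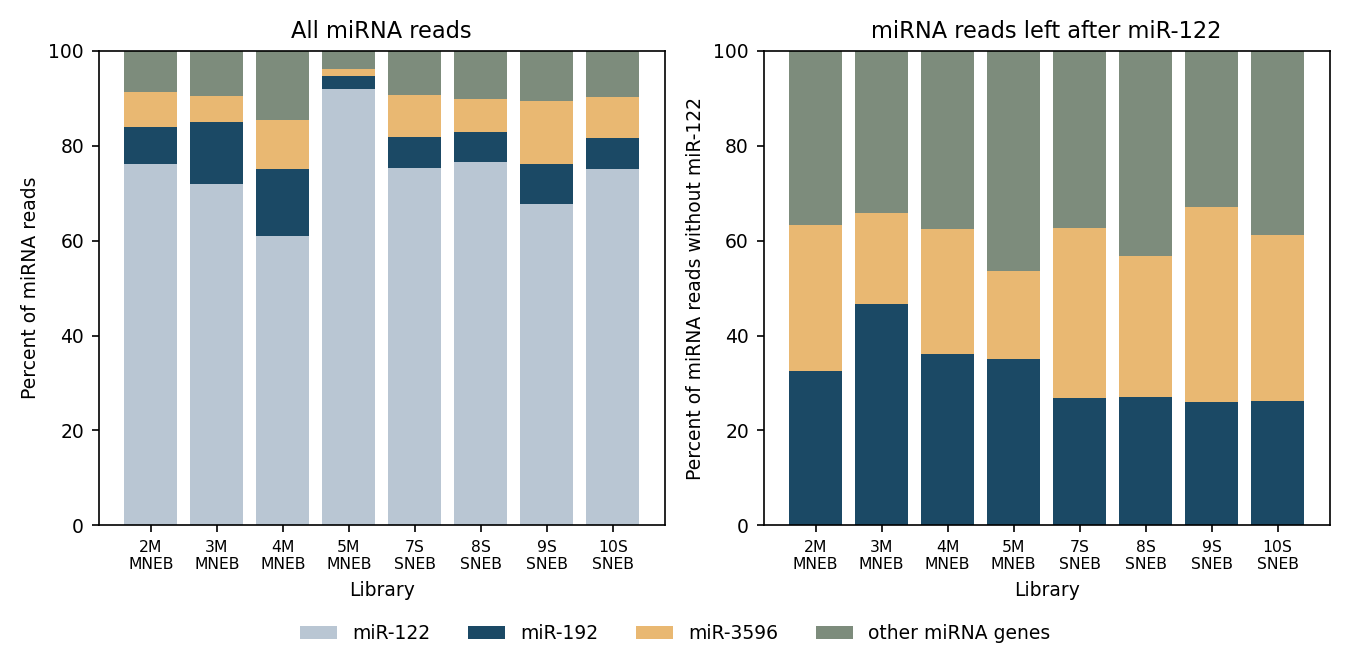
Left, percent of the miRNA reads of each library from miR-122, miR-192, miR-3596 and all other miRNA genes. Right, the same without miR-122, where miR-192 takes 32.5% to 46.6% in the 4 MNEB libraries and 25.9% to 27.1% in the 4 SNEB libraries.

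Library 5M stood apart on the share of all miRNA reads but not on the share left after miR-122. miR-192 took 2.85% of all its miRNA reads, the lowest of the 8, and 14.1% in 4M, the highest. Of the reads left after miR-122 it took 35.1% and 36.2% in the same libraries. As a share of all miRNA reads miR-192 was at 9.47% ± 5.23 in MNEB and 6.97% ± 0.938 in SNEB (SD, n = 4 each). On that share 0 of 120 genes (0%) had groups that did not overlap, and so 0 had an unadjusted p under 0.05 in the exact permutation test. Against miR-122 itself, the log2 ratio of miR-192 was -3.22 ± 1.30 in MNEB and -3.41 ± 0.26 in SNEB (SD, n = 4 each). The exact permutation test of this difference gave p = 0.857 (two-sided, adjusted p = 0.971 over 3 ratios). Library 5M was at -5.01, against -3.29 in 2M, -2.45 in 3M and -2.10 in 4M. The difference was -0.79 without 5M and 0.18 without 4M, so its size and sign rest on single libraries. The log2 ratio of miR-194-2 to miR-122 differed by -0.011 (two-sided exact permutation test, p = 0.971, adjusted p = 0.971). Without 5M that difference was -0.53, and without 3M it was 0.33.

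With all 8 libraries and 2M as MNEB, miR-192 was the gene with separate groups on this measure. Of the 119 genes tested, 1 (0.84%) had groups that did not overlap in the share left after miR-122, and 1 (0.84%) was lower in SNEB in this way, which was miR-192. Random assignment of the libraries would separate the groups of a share of 0.0286 of genes, which is more than was seen. With 4 against 4, an unadjusted p under 0.05 in the exact permutation test arises only where the groups do not overlap, so it is no separate result. In that test 0 of 119 (0%) had an adjusted p under 0.05. Without MNEB replicate 2 the MNEB range was 35.1% to 46.6%. With 2M counted as SNEB, 2M at 32.5% was the highest SNEB value, and the lowest MNEB value was 35.1%. The two-sided exact permutation test then gave p = 0.0357, the smallest that 3 against 5 allows, and adjusted p = 0.327. As 2M had the lowest MNEB share, moving it could not make the groups overlap, so this unadjusted p was fixed in advance and adds nothing. In that setting 3 of the 119 genes were lower in SNEB without overlap and 9 were higher, so miR-192 was no longer alone. With each library left out in turn the difference of miR-192 ran from -8.04 to -12.8 percentage points, the smallest without 3M and the largest without 2M. Groups that do not overlap cannot come to overlap by leaving out a library, so the ranges add nothing there. The number of genes without overlap was 3 lower and 9 higher without 2M, 4 lower and 9 higher without 9S, and 4 lower and 3 higher without 8S. It was 5 lower without 3M, 3 lower without 5M and 2 lower without 10S, with 0 higher in each of these. Beside 10S and 7S, the SNEB libraries it was most like over other miRNAs, 2M had 32.5% against 26.2% and 26.9%.

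miR-3596 was the other large part of the same remainder, and its mean was higher in SNEB. It took 30.8% of the reads left after miR-122 in 2M, 19.2% in 3M, 26.3% in 4M and 18.5% in 5M, and from 29.6% in 8S to 41.3% in 9S in SNEB, with a median of 35.3%. The groups overlapped for this gene, since 2M lay above 8S, and it did not pass (two-sided exact permutation test, p = 0.0571, adjusted p = 0.680). The ratio of miR-192 to miR-3596 ran from 0.627 to 2.43 over the libraries, with a mean log2 of 0.68 ± 0.53 in MNEB and -0.41 ± 0.22 in SNEB (SD, n = 4 each), a pair chosen after its values were seen and not tested. With miR-3596 also taken out of the denominator, miR-192 held 43.0% to 57.7% in MNEB and 38.5% to 44.1% in SNEB. These ranges overlapped (two-sided exact permutation test, p = 0.0571, adjusted p = 0.562 over 118 genes). With the whole let-7 family taken out, the means were 58.9% in MNEB and 54.6% in SNEB (two-sided exact permutation test, p = 0.343, adjusted p = 0.692 over 107 genes). The groups of miR-192 were thus separate with the let-7 reads in the denominator and overlapped in both settings without miR-3596.

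The other members did not separate the groups on the share left after miR-122 with all 8 libraries. miR-194-2 took 0.0906% ± 0.0310 in MNEB and 0.0759% ± 0.0303 in SNEB (SD, n = 4 each), with libraries from 0.0341% in 9S to 0.131% in 3M. Its order neighbours, miR-23a at 0.0861% ± 0.0366 and miR-145 at 0.0829% ± 0.0595 (SD, n = 8), lay within its spread of 0.0832% ± 0.0294. miR-215 took 0.0242% ± 0.0116 in MNEB and 0.0180% ± 0.00683 in SNEB (SD, n = 4 each). Library 5M, at 0.00704%, was the lowest, and without it the MNEB range of 0.0272% to 0.0324% lay above the SNEB range of 0.0104% to 0.0267%, which makes miR-215 1 of the 3 genes lower without overlap in that setting. Its neighbours in the order, miR-101-2 at 0.0219% ± 0.0160 and miR-411a at 0.0206% ± 0.00644 (SD, n = 8), did not differ from it beyond the spread either. miR-194-1 took 0.00223% ± 0.00192 in MNEB and 0.00302% ± 0.00258 in SNEB (SD, n = 4 each). Over both groups together, miR-192, at 32.1% ± 7.19, and the next gene miR-3596, at 29.6% ± 7.99 (SD, n = 8), were within each other's spread. Within libraries, however, miR-192 was above miR-3596 in every MNEB library and below it in every SNEB library.

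**Figure D3:**
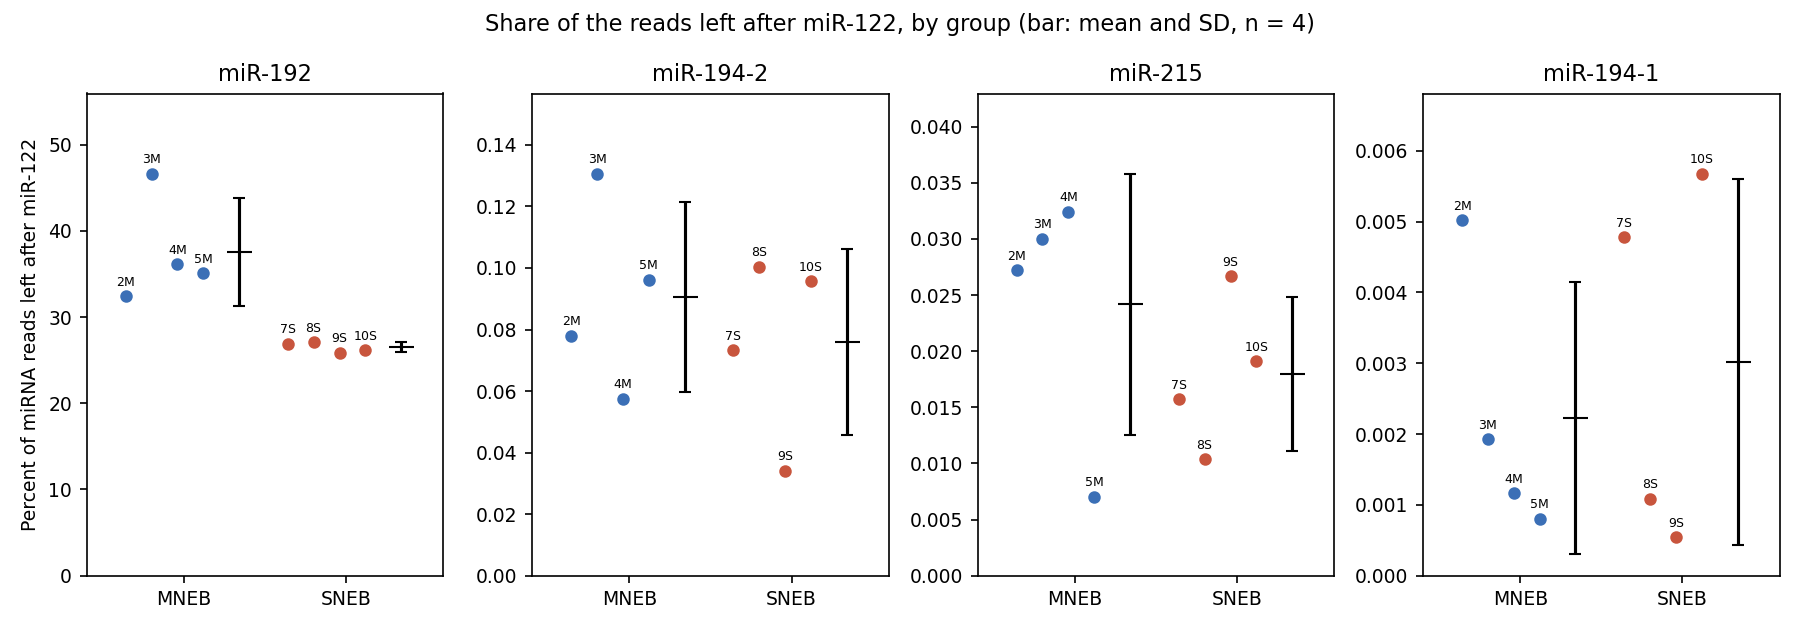
Percent of the miRNA reads left after miR-122 for each gene, with 1 point per library and the mean and SD of the 4 libraries of each group beside them. The groups do not overlap for miR-192 and overlap for miR-194-2, miR-215 and miR-194-1.

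The counts of the 120 miRNA genes above 10 RPM were fitted in edgeR (quasi-likelihood, TMM scaling), with log2 fold changes given for SNEB over MNEB. miR-192 had a log2 fold change of -0.73 (standard error 0.30, unadjusted p = 0.0275, adjusted p = 0.317), miR-194-2 one of -0.51 (standard error 0.46, adjusted p = 0.678) and miR-215 one of -0.59 (standard error 0.51, adjusted p = 0.675). None of the 3 passed, and 0 of 120 genes (0%) did, while before adjustment 5 genes were higher and 11 lower with p under 0.05 (9.17% of genes lower in this way, miR-192 among them). edgeR's exact test called 1 gene, DESeq2 1 and limma voom 0. All 3 members had a negative log2 fold change, as did 63.3% of the 120 genes, and the median over these genes was -0.20 with TMM and 0.06 with no scaling. Relative to that median miR-192 was at -0.53 with TMM and -0.50 with no scaling. miR-194-1, tested over the 262 genes with at least 1 read in every library, had a log2 fold change of 0.39 (standard error 0.73, edgeR adjusted p = 0.994), where 0 of 262 genes (0%) passed and, before adjustment, 9 were higher and 5 lower with p under 0.05. Over these genes edgeR's exact test called 1, DESeq2 1 and limma voom 0.

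Leaving out libraries moved these values without any passing. The log2 fold change of miR-192 was -0.67 without 2M (adjusted p = 0.256 with edgeR's quasi-likelihood test) and -0.55 without 5M (adjusted p = 0.694). Without 3M, its highest share left after miR-122, it was -0.38 (adjusted p = 0.633). With 2M counted as SNEB it was -0.82 (adjusted p = 0.0794). With miR-122 left out of the fit it was -0.64 (standard error 0.18, unadjusted p = 0.00305, adjusted p = 0.246). miR-194-2 fell closest to 0 without 3M, at -0.09 (adjusted p = 0.956). miR-215 was at -0.70 without 5M (adjusted p = 0.694) and at -0.19 without 3M (adjusted p = 0.938). miR-194-1 was at 1.03 without 2M (adjusted p = 0.646), at 1.21 with 2M counted as SNEB (adjusted p = 0.477) and at 0.06 without 5M (adjusted p = 0.999), all by edgeR.

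**Figure D4:**
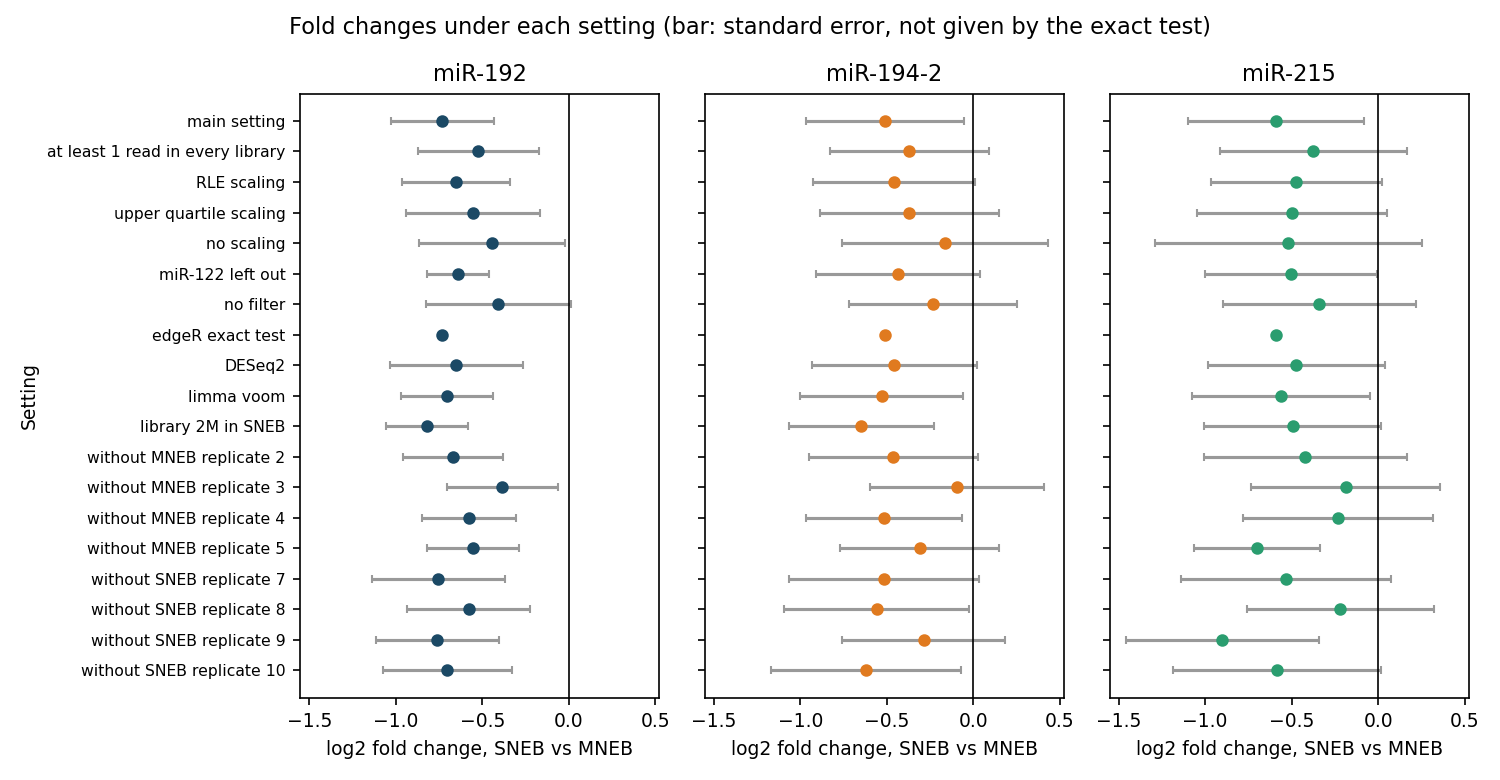
log2 fold change of SNEB against MNEB with its standard error for miR-192, miR-194-2 and miR-215, 1 line per setting. All values are below 0, from -0.82 to -0.38 for miR-192, and none has an adjusted p under 0.05.

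Markers of the cells that a liver sample could hold were read beside these values. Of 12 names of hepatocyte-enriched miRNAs 10 were in the table. Without miR-122 their summed level ran from 1201 to 6424 RPM in MNEB and from 1016 to 2936 RPM in SNEB, and 0 of the 9 above 10 RPM, miR-122 included, passed edgeR's test, with 3 above 0 and a median log2 fold change of -0.47. miR-148a stood at 2289 ± 2280 RPM in MNEB and 1140 ± 715 RPM in SNEB, and miR-885 at 227 ± 171 and 188 ± 130 RPM (SD, n = 4 each). miR-193a stood at 43.3 ± 16.2 and 62.9 ± 19.1 RPM. The median over all 120 genes was -0.20.

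Counted reads of miRNAs of other epithelia in which the family is abundant were low. The 9 epithelial genes found of 10 summed to 24.4 to 191 RPM in MNEB and 58.7 to 102 RPM in SNEB, led by miR-375, miR-200a, miR-200b and miR-200c at means of 39.5, 16.8, 16.8 and 5.93 RPM. Among the kidney names, miR-204 was at 0.942 to 6.16 RPM, and miR-211, miR-196a-1 and miR-196a-2 were at 0 in every library. For miR-211 a count of 0 allows up to 3 reads in each library. miR-196a-1 and miR-196a-2 are named as copies of the same miRNA, and reads that fit both were left out. Their 0 therefore does not give the level of that miRNA. The values of the epithelial genes, miR-204 and miR-211 stand far below those of miR-192. The leukocyte list summed to 23.6 to 904 RPM in MNEB and 305 to 605 RPM in SNEB, the red cell list to 51.0 to 83.8 and 62.3 to 108 RPM, and miR-126 of endothelium to 18.8 to 170 and 82.2 to 120 RPM. The stellate and smooth muscle list, led by miR-143, reached 2331 to 12888 RPM in MNEB and 1831 to 2896 RPM in SNEB. The means of miR-143 were 6145 RPM in MNEB and 2116 RPM in SNEB. Those of miR-145 (128 and 276 RPM), miR-214 (25.9 and 38.5 RPM) and miR-199a-1 (0.826 and 2.18 RPM) were higher in SNEB. For miR-199b they were 47.4 and 45.6 RPM. edgeR tested 4 genes of this list and 0 passed. Their median log2 fold change was 0.16, and 2 of the values were above 0. Library 5M held the lowest sum of the leukocyte, red cell, epithelial and endothelial lists. Its hepatocyte-enriched sum without miR-122, at 1201 RPM, was the lowest in MNEB but lay within the SNEB range. Its stellate and smooth muscle sum, at 7495 RPM, was above every SNEB library and second only to 4M. The part of the cells of these lists in the share of miR-192 was not tested.

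Fragments of mRNAs that belong to the family's regulators, overlapping genes and known targets were few. Of 14 genes listed, 8 had at least 1 read in every library, and 0 of them passed edgeR's quasi-likelihood test, with adjusted p of 0.492 to 0.997, against 0.818% of the 4887 genes tested. Before adjustment 0 of the 8 had a p under 0.05 with all 8 libraries. HNF4A, a driver of the family in hepatocytes, had 11 to 118 reads per library and a log2 fold change of -0.01 (standard error 0.41) with TMM and 0.09 with no scaling. CDH2, which encodes N-cadherin and is a target of miR-194 in human and mouse, was at 0.705 RPM in MNEB and 1.63 RPM in SNEB, and its log2 fold change was 0.86 (standard error 0.43, edgeR unadjusted p = 0.0555, adjusted p = 0.492). By the same edgeR test it was 1.16 without 2M (unadjusted p = 0.0221, adjusted p = 0.331), 0.94 without 5M (unadjusted p = 0.0470, adjusted p = 0.287) and 1.00 without 9S (unadjusted p = 0.0382, adjusted p = 0.450). It was 1.12 with 2M in SNEB (edgeR unadjusted p = 0.0195, adjusted p = 0.331), and 0.57 without 8S (unadjusted p = 0.238, adjusted p = 0.780). The same test gave 0.87 without 3M (unadjusted p = 0.0767, adjusted p = 0.595) and 0.60 without 4M (unadjusted p = 0.157, adjusted p = 0.795). Without 7S it gave 0.87 (unadjusted p = 0.0841, adjusted p = 0.659) and without 10S 0.97 (unadjusted p = 0.0524, adjusted p = 0.567). ZEB1 and ZEB2, which repress epithelial genes, MDM2, a ubiquitin ligase, and DICER1, which cuts miRNA precursors, had at most 23 reads in any library. The overlapping gene EHD1 had 2 to 16 reads and IARS2 had 6 to 38, against up to 4017351 reads of miR-192. The strands of the overlapping genes were not compared, so a shared transcript is not shown. IARS2 was added after the neighbours were read. TYMS, RB1 and DROSHA were at 0 in at least 1 library. These fragments come from small RNA libraries and are not mRNA levels.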

How the data were processed

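Small RNA libraries from 8 livers were prepared by the authors. FastQC 0.10.0 served for quality, and cutadapt 1.1 for adapter removal, after which reads under 18 nucleotides were dropped. Novoalign 2.07.11 placed the reads on UMD3.1 and HTSeq 0.5.3p3 assigned them to Ensembl genes. The deposited table holds the authors' counts of uniquely aligned reads for 24616 genes. The strand setting of HTSeq was not given in the sources used here. Each library column was mapped to a sample (0 unmapped), and the column headed 6S was taken as 8S from the column letter in that sample's label. The 3 lines that name no gene, blank or the column totals, were left out. A second file of the authors' mean counts was not used. The arms of a miRNA precursor are not separated in the counts.

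RPM and percentages were computed with all gene reads or all miRNA reads as denominators, and 0.5 reads were added before logarithms in comparisons over all genes. The lowest chi-square per degree of freedom among the 12 pairs of libraries within groups was 17.3, so no library was a copy. Counts were tested with edgeR 4.0.16 (R 4.3.3), with DESeq2 1.42.0 and limma 3.58.1 as alternatives, and percentages and ratios with exact permutation tests in Python 3.11.15 (numpy 2.4.6, pandas 2.3.3, scipy 1.17.1). Both were tested on simulated data. p-values were adjusted by Benjamini-Hochberg over all genes tested. Alternatives were RLE, upper quartile and no scaling, other filters and tools, miR-122 left out, other denominators, library 2M moved to SNEB, and fits without each library in turn.

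The genes, lists and tests were chosen with earlier results of these data known. p-values measure the spread between cows, 1 library each. No paired design exists, as no replicate number occurs in both groups. The genes named are the 4 members, miR-122, the 5 genes most like miR-192 and miR-194-2, their neighbours in the order, up to 4 of the most abundant markers per list and the mRNA list, of which some genes are not reported here. miR-3596, miR-455, IARS2 and the second locus were added after the files were read, as were the counts without overlap under other settings.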

Additional observations from a re-analysis of the deposited data

Results flagged for a closer look

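Library 9S stood above the other SNEB libraries for miR-192, with a gap to the next library of 0.848, 0.846 and 0.837 of the group's range, past Dixon's 95% value for 4 samples. It held 82848 RPM, 8.37% of the miRNA reads, and a log2 ratio to miR-122 of -3.02, the highest in SNEB. On the share left after miR-122 the same library was the lowest in SNEB, at 25.9%. Of 38 groups of 4 examined, 3 were marked in this way, and chance marks about 1 in 20. The 3 measures share the reads of miR-192 and are not independent.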

How the results depend on the processing

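No member passed an adjusted p of 0.05 under any alternative. The groups of miR-192, separate in the share left after miR-122, overlapped without miR-3596 (exact permutation p = 0.0571) and without the let-7 family (exact permutation p = 0.343). Those of miR-215 were separate without 5M, by a gap within counting error. The correlation of miR-192 with miR-194-2 ran from 0.13 to 0.59 with 1 library left out and reached 0.72 on RPM. The log2 fold change of miR-192 ran from -0.82 to -0.38 over 18 alternatives (adjusted p 0.0794 to 0.991, edgeR, DESeq2 or limma), that of miR-194-2 from -0.65 to -0.09 and that of miR-215 from -0.90 to -0.19. Some values changed sign, and the cause was not tested. With the let-7 family out of the denominator, miR-194-2 differed by 0.0139 percentage points. With single libraries left out, the log2 fold change of miR-194-1 ran from -0.061 to 1.03, the difference of miR-194-2 in its percentage of miRNA reads from -0.00685 to 0.00280, and the differences in log2 ratio from -0.52 to 0.0012 for miR-192 to miR-194-2, from -0.79 to 0.18 for miR-192 to miR-122 and from -0.53 to 0.33 for miR-194-2 to miR-122. For mRNA fragments, HNF4A was at 0.012 over genes with a mean of at least 5 reads, at 0.086 with no scaling and at 0.044 with 2M in SNEB, where DICER1 was at -0.033. With single libraries left out, log2 fold changes ran from -0.18 to 0.44 for HNF4A, from -0.051 to 0.55 for ZEB1, from -0.14 to 0.55 for MDM2, from -0.55 to 0.21 for ZEB2 and from -0.16 to 0.30 for EHD1. The number of the 120 genes that passed was 0 in the main fit and 1 with no filter (480 genes), with edgeR's exact test, with DESeq2 and with 2M in SNEB. Counting error was up to 3.83% of the value for miR-194-2, 14.2% for miR-215 and 42.7% for miR-194-1 (95% Wilson interval, distance to either side), so depth limits the last of these most. Leaving out a cow leaves 3 against 4, where the exact permutation test cannot go below 0.0571. No paired analysis was possible because the groups share no replicate number.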
